A study of Mus musculus with 20 samples.

Results

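The transcription factor NRF2 is encoded by *Nfe2l2*. It is described here with 9 genes of oxidative defense: *Nqo1*, *Gclc*, *Gclm*, *Txnrd1*, *Srxn1*, *Slc7a11*, *Hmox1*, *Gpx4* and *G6pdx*. They were picked by symbol, and all 10 were found among the 50559 genes of the count table. RNA was sequenced from 20 livers, 5 in each of 4 groups, of *Cideb* fl/fl mice whose background was C57BL/6. CIDEB is a protein of the lipid droplet surface in hepatocytes. All mice carried the floxed allele and all received an adeno-associated virus (AAV) whose TBG promoter is active in hepatocytes. The virus was AAV-TBG-GFP for the groups called WT. It was AAV-TBG-Cre for the groups called KO, where Cre acts on hepatocytes and the TBG promoter is not active in the other liver cells. Mice of each kind were fed a western diet (WD), rich in sugar, fat and cholesterol, or a high-fat diet of defined amino acids without choline (CDA-HFD). The paper's methods describe CDA-HFD as deficient in methionine as well as choline. The labels give 3 months for either diet, whereas the paper's text gives a longer WD feeding, so diet cannot be told apart from feeding time and cohort. Age is not in the labels.

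In resting cells KEAP1 holds NRF2 and passes it to a ubiquitin ligase. Oxidants and electrophiles modify KEAP1, NRF2 then escapes degradation, pairs with a small MAF protein and binds antioxidant response elements near its targets. NRF2 is thus controlled mostly at the protein level, and its mRNA alone does not show its activity. The targets make and recycle glutathione, reduce thioredoxin and peroxiredoxin, detoxify quinones, break down heme and supply NADPH.

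The libraries held 11697049 to 16827147 reads on genes. Levels are given as CPM, the reads of a gene relative to the library total scaled by edgeR's TMM factors, on 1 scale for the 20 livers. Log2 fold changes come from edgeR's quasi-likelihood test with Benjamini-Hochberg adjustment over all genes tested, passing at an adjusted p under 0.05. The labels held for the targeted gene: *Cideb* was at 2.218 to 7.558 CPM in the 10 WT livers and at 0 to 0.3984 CPM in the 10 KO livers. Hepatocyte markers (10 genes, among them *Alb*) were detected in every library. KO liver 5 on CDA-HFD stood apart from the 4 other KO livers of its diet. Its summed macrophage markers (15 genes) reached 2448 CPM against 785.4 to 1026 CPM in those 4 and 2047 to 4175 CPM in WT livers, and its hepatocyte markers came to 41890 CPM against 83920 to 115400 CPM and 40500 to 82470 CPM. Its *Cideb* level was 0.05985 CPM, within the KO range. Values of the 10 genes and *Keap1* that rest on this liver are given with and without it, and genes of wider lists where leaving it out ends a call or moves a fold over 1.5 times.

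Matches to the core of the antioxidant response element are shown because that element is where NRF2 binds. RefSeq promoters of GRCm38.p6, from 250 bases before a start to 50 after it, were at hand for 8 of the 10 genes, and *Gclc* and *Hmox1* had no entry. The core was searched as TGACNNNGC on either strand, where N is any base. The 8 genes have 13 such promoters, since some have several starts. The core was found in 5 of these 13 promoters, each of another gene, and in 12.4% of 32851 promoters of all genes. A second form, TGAGNNNGC, was found in 2 of the 13 promoters and in 17.6% of all promoters. The matched 9 bases are in capitals, each line is written 5′ to 3′ on the strand of the match, and the first 5 lines hold the first form.
Nfe2l2, chr2:75704884-75704913, minus strand: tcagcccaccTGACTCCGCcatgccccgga
Gclm, chr3:122245412-122245441, minus strand: tcgtgagagtTGACGGTGCgcccgggagcg
Txnrd1, chr10:82859103-82859132, minus strand: cgtgtcagaaTGACAAAGCaaaaatccagt
G6pdx, chrX:74428919-74428948, plus strand: gcgtgtgcttTGACTGAGCtgacccgcctc
Srxn1, chr2:152105541-152105570, minus strand: tgtctcactcTGACCTAGCtgcccactgcc
Srxn1, chr2:152105355-152105384, minus strand: ccagagaggaTGAGTCGGCtctcagtagaa
Srxn1, chr2:152105469-152105498, plus strand: aaattcacccTGAGTCAGCggccgggcgcg
Slc7a11, chr3:50443692-50443721, plus strand: aactccagctTGAGAAAGCgccaacattac
The matches began 240 bases before the start in *Nfe2l2*, 134 in *Gclm*, 92 in *Txnrd1*, 57 in *G6pdx* and 97 in *Slc7a11*. *Srxn1* held 3 matches, 158 and 45 bases before the start and from base 29 after it. Its match at 45 bases contains TGAGTCA, which is also the AP-1 motif. Another copy of that motif began 102 bases before the start, outside the 3 matches. That motif, searched as TGACTCA on either strand or as TGAGTCA, was found in 1 of the 13 promoters, that of *Srxn1*, and in 5.2% of all promoters. A match is a run of letters and was not tested as a binding site.

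KO livers on CDA-HFD had less *Hmox1*, *Slc7a11*, *G6pdx* and *Nfe2l2* RNA than WT livers on that diet, while none of the 9 genes with enough reads passed the test between KO and WT livers on WD. *Hmox1* fell 2.34-fold on CDA-HFD, *Slc7a11* 3.93-fold, *G6pdx* 2.25-fold and *Nfe2l2* 1.26-fold. DESeq2 called *Nqo1* and *Srxn1* lower on WD, among 164 calls over all genes. The difference of the KO effect between the diets passed for none of the 10 genes in edgeR, where 99 of 17804 genes passed. Of all genes tested, edgeR called 7.29% lower in KO livers on CDA-HFD and 0.0631% on WD. The same diet, set against WD in WT livers, came with more *Slc7a11*, *G6pdx*, *Hmox1*, *Srxn1* and *Nqo1* RNA and less *Gclc* RNA, where 25.9% of all genes were called higher and 25.2% lower. The plot of levels by liver shows all 10 genes, and their values follow by role.

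**Figure D1:**
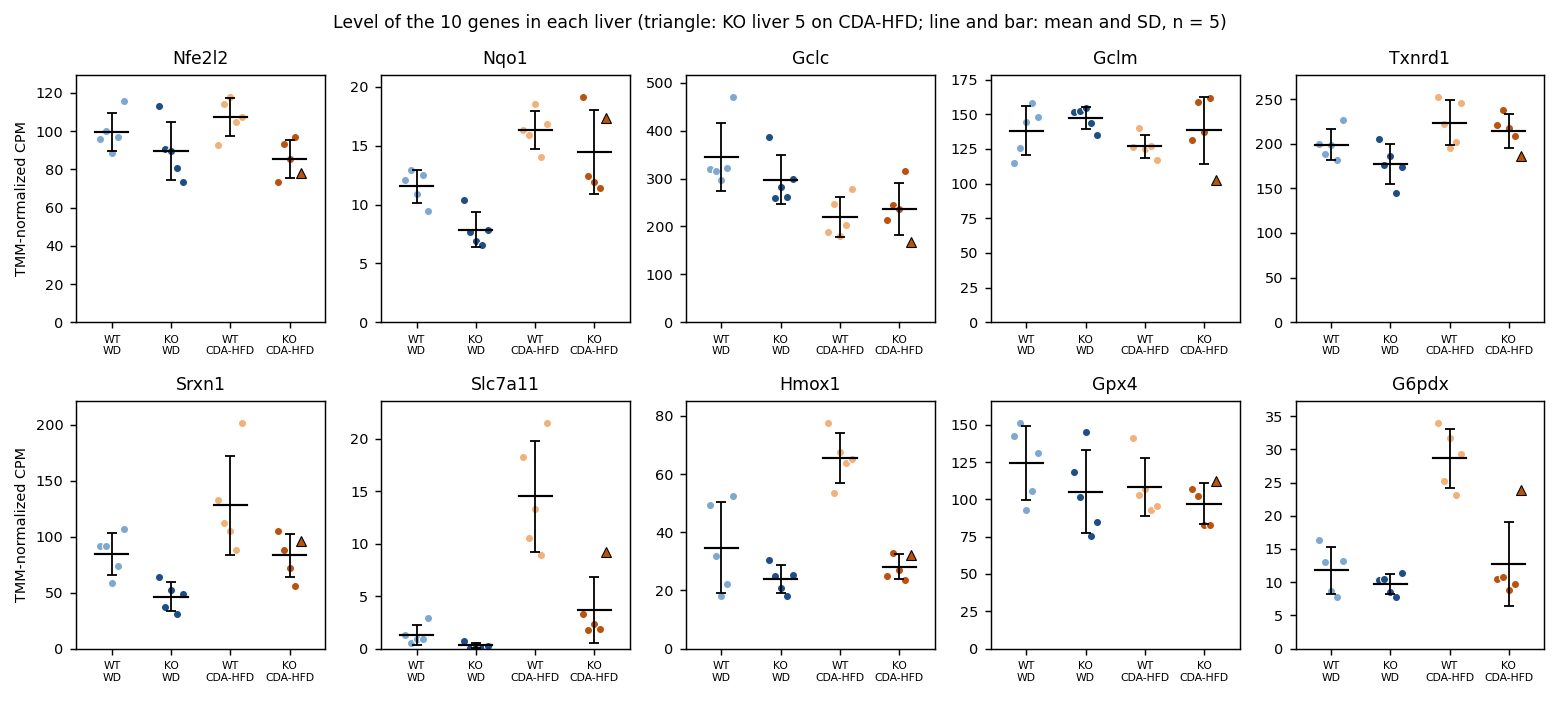
Level of each of the 10 genes (y axis, TMM-normalized CPM, a separate linear scale per gene starting at 0) in WT and KO livers on WD and on CDA-HFD (x axis). Points are livers, the triangle is KO liver 5 on CDA-HFD, and lines with bars are the mean and SD of 5 livers. *Hmox1* was at 53.61 to 77.46 CPM in WT livers on CDA-HFD and at no more than 33.03 CPM in KO livers, while *Gclm* and *Txnrd1* overlapped between all groups.

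*Nfe2l2* itself (ENSMUSG00000015839.6, chr2:75675513-75704641 in the GENCODE M21 annotation of GRCm38) varied little. On WD it was at 95.75, 100.2, 88.5, 96.79 and 115.7 CPM in WT livers and at 113.2, 90.88, 89.43, 80.8 and 73.27 CPM in KO livers. The 2 groups overlapped, with a log2 fold change of -0.15 (95% interval -0.40 to 0.10, adjusted p = 0.66). On CDA-HFD it was at 92.54, 114.3, 117.8, 104.5 and 107.4 CPM in WT livers and at 73.6, 93.13, 85.59, 97.12 and 78.04 CPM in KO livers. All but the lowest WT liver lay above every KO liver. *Nfe2l2* passed the test there, at -0.33 on the log2 scale (standard error 0.10, adjusted p = 0.0464, exact two-sided permutation p = 0.0238). This call sat near the threshold: it was kept in 3 of the 10 fits with 1 liver left out, where the adjusted p reached 0.117, and it was lost without a filter on low counts (adjusted p = 0.0971). Between the diets *Nfe2l2* had a log2 fold change of 0.10 in WT livers (adjusted p = 0.378) and -0.07 in KO livers (adjusted p = 0.729).

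*Keap1*, which encodes the brake on NRF2, ran the other way on CDA-HFD. It was at 46.56 to 51.02 CPM in WT livers and at 67.48, 70.74, 70.32, 68.34 and 50.87 CPM in KO livers, the last being KO liver 5. It rose by 0.41 on the log2 scale with the KO (adjusted p = 0.0218), and it was lower on CDA-HFD than on WD in WT livers by a log2 fold change of -0.43 (adjusted p = 0.000214). In KO livers its diet difference was 0.01 (adjusted p = 0.979), and on WD its KO difference was -0.01 (adjusted p = 0.978). The difference between the KO effects on the 2 diets, 0.43, did not pass (adjusted p = 0.173). Without KO liver 5 the KO difference on CDA-HFD was 0.49 (adjusted p = 0.000384) and the difference between the KO effects passed at 0.51 (adjusted p = 0.0168).

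*Gclc* and *Gclm* encode the catalytic and the modifier subunit of glutamate-cysteine ligase, which makes the first bond of glutathione. *Gclc* (ENSMUSG00000032350.9, chr9:77754535-77794485) was at 320.8, 315.8, 296.3, 322.5 and 470.4 CPM in WT livers on WD and at 189.3, 247.5, 179.7, 203.4 and 278.8 CPM in WT livers on CDA-HFD. Every WT liver on WD lay above every WT liver on CDA-HFD, and liver 5 on WD was the highest. *Gclc* fell by 0.66 on the log2 scale (standard error 0.16, adjusted p = 0.00474). It was the only one of the 10 called lower with the diet, and its call was lost when libraries were scaled by size only (log2 fold change -0.24, adjusted p = 0.219). KO livers were at 386, 259.8, 281.9, 262.5 and 298.7 CPM on WD and at 214.2, 245, 236.7, 316.8 and 168.1 CPM on CDA-HFD, which overlapped. *Gclc* did not pass between the diets in KO livers (-0.34, adjusted p = 0.168), nor between KO and WT livers on WD (-0.21, adjusted p = 0.628) or on CDA-HFD (0.10, 95% interval -0.29 to 0.48, adjusted p = 0.717).

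*Gclm* (ENSMUSG00000028124.15, chr3:122245557-122270732) stayed between 102.6 and 162.1 CPM in all 20 livers and passed in none of the comparisons. Its group means were 138 ± 17.5 and 147 ± 7.94 CPM in WT and KO livers on WD, and 127 ± 8.32 and 138 ± 24.1 CPM on CDA-HFD (SD, n = 5 each). Its log2 fold change between KO and WT livers was 0.09 on WD and 0.12 on CDA-HFD (95% interval -0.15 to 0.39, adjusted p = 0.515). Of its exon bases, 4.71% are shared with *Gm17494* on the opposite strand and 3.88% with the pseudogene *Gm6061* on the same strand, so part of its count is uncertain.

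*Slc7a11* encodes xCT, the exchanger that brings in cystine for glutathione, and per exon length it was the scarcest of the 10 genes on WD. It lies at chr3:49892526-50443614 (ENSMUSG00000027737.10). On WD it was scarcely detected. WT livers on WD had 16, 6, 12, 9 and 40 reads (1.252, 0.5151, 0.9069, 0.8916 and 2.915 CPM), and KO livers had 8, 1, 4, 1 and 3 reads (0.7348, 0.07768, 0.3722, 0.07587 and 0.2346 CPM). Only KO liver 1 reached the WT range. The low counts kept the gene out of the fit on WD. The permutation test of its CPM gave p = 0.0159 (exact, two-sided), and with no filter on low counts its log2 fold change was -2.18 (adjusted p = 0.176). On CDA-HFD WT livers had 289, 150, 242, 133 and 453 reads, or 18.32, 10.55, 13.33, 8.913 and 21.49 CPM. KO livers on that diet had 47, 28, 35, 25 and 154 reads, or 3.27, 1.772, 2.324, 1.835 and 9.216 CPM. KO liver 5 alone overlapped the WT livers. *Slc7a11* rose with CDA-HFD in WT livers by 3.44 on the log2 scale (95% interval 2.58 to 4.29, adjusted p = 4.93e-05) and in KO livers by 3.66 (95% interval 2.20 to 5.12, adjusted p = 0.0051), without overlap between the diets in either. Without KO liver 5 the second value was 2.96 (adjusted p = 0.00161), a 7.8-fold rise in place of 12.6-fold. The gene passed the filter on low counts in these fits through its CDA-HFD livers, and the folds rest on few reads on WD, so their size is uncertain. On CDA-HFD the KO value relative to WT was -1.97 on the log2 scale (standard error 0.45, adjusted p = 0.0208). Without KO liver 5 that value was -2.66 (adjusted p = 0.000179). The call was lost in 5 of the 10 fits with 1 liver left out, at an adjusted p of up to 0.0591.

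*Txnrd1* and *Srxn1* serve the thioredoxin branch. Thioredoxin reductase, from *Txnrd1*, keeps thioredoxin reduced, and sulfiredoxin, from *Srxn1*, repairs overoxidized peroxiredoxins. *Txnrd1* (ENSMUSG00000020250.10, chr10:82833951-82897712) was at 199 ± 17.2, 177 ± 22.1, 224 ± 25.2 and 214 ± 18.8 CPM (SD, n = 5 each) in WT and KO livers on WD and in WT and KO livers on CDA-HFD. No comparison of it passed. Its log2 fold changes were -0.17 and -0.07 between KO and WT livers on WD and on CDA-HFD, 0.16 with the diet in WT livers and 0.27 with the diet in KO livers (95% interval 0.04 to 0.50, adjusted p = 0.101).

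*Srxn1* (ENSMUSG00000032802.8, chr2:152105516-152111376) was at 91.29, 91.86, 58.87, 73.61 and 106.5 CPM in WT livers on WD, and at 64.02, 36.74, 51.84, 31.18 and 48.56 CPM in KO livers on WD. KO liver 1 was the only KO liver to reach the WT range. The KO value relative to WT was -0.86 on the log2 scale (standard error 0.20, 95% interval -1.29 to -0.43), with an unadjusted p of 0.000873 and an adjusted p of 0.169 in edgeR. DESeq2 called it on the same livers, at an adjusted p of 0.00874. On CDA-HFD WT livers were at 132.6, 112.1, 104.9, 88.12 and 201.1 CPM and KO livers at 104.6, 87.94, 71.52, 55.72 and 95.93 CPM. The groups overlapped there, and the KO value relative to WT was -0.62 on the log2 scale (standard error 0.23, adjusted p = 0.0844). Without KO liver 5 *Srxn1* passed, at an adjusted p of 0.0422. With the diet *Srxn1* rose by 0.59 on the log2 scale in WT livers (adjusted p = 0.0402), and by 0.84 in KO livers (adjusted p = 0.0223). In WT livers the exact permutation test gave p = 0.0556, and the call held in 4 of the 10 fits that left out 1 liver.

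*Nqo1* encodes the quinone reductase that is commonly used as a readout of NRF2. It lies at chr8:107388225-107403206 (ENSMUSG00000003849.8). WT livers on WD were at 12.05, 12.96, 10.88, 12.48 and 9.475 CPM and KO livers at 10.38, 7.69, 6.887, 6.525 and 7.82 CPM. KO liver 1 was again the only one within the WT range. The log2 fold change was -0.56 (standard error 0.14, 95% interval -0.87 to -0.24), with an unadjusted p of 0.00214 and an adjusted p of 0.239 in edgeR, while DESeq2 gave an adjusted p of 0.0449. On CDA-HFD WT livers were at 16.29, 15.9, 18.51, 14.07 and 16.84 CPM, and KO livers at 19.13, 12.4, 11.95, 11.38 and 17.36 CPM. KO livers 1 and 5 lay among or above the WT livers and the others below them, and the log2 fold change was -0.18 (95% interval -0.53 to 0.17, adjusted p = 0.43). With the diet *Nqo1* rose by 0.49 on the log2 scale in WT livers (adjusted p = 0.00289) and by 0.88 in KO livers (adjusted p = 0.0113). The diets did not overlap in either, and both calls held in all 10 fits with 1 liver left out.

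*Hmox1* encodes heme oxygenase, which opens the heme ring and releases iron, carbon monoxide and biliverdin. NRF2 induces it and BACH1 represses it, and in liver Kupffer cells express it as well as hepatocytes. It lies at chr8:75093621-75100589 (ENSMUSG00000005413.8). On WD WT livers were at 49.28, 31.76, 17.91, 22.09 and 52.33 CPM, and KO livers at 30.59, 24.86, 20.66, 17.98 and 25.26 CPM. The WT livers spread over a wider range than the KO livers and enclosed all of them. The log2 fold change was -0.54 (95% interval -1.14 to 0.06, adjusted p = 0.508). On CDA-HFD WT livers were at 77.46, 53.61, 67.5, 63.66 and 65.24 CPM, and KO livers at 24.9, 33.03, 26.96, 23.56 and 32.08 CPM. Every KO liver lay below every WT liver, KO liver 5 included. *Hmox1* fell by 1.22 on the log2 scale (standard error 0.12, 95% interval -1.49 to -0.95, adjusted p = 0.00158, exact permutation p = 0.00794, the smallest that 5 livers against 5 allow). It passed in all 10 fits with 1 liver left out, at -1.29 to -1.16. With the diet it rose in WT livers by 0.91 (standard error 0.26, adjusted p = 0.0125), without overlap, and in KO livers the log2 fold change was 0.23 (95% interval -0.10 to 0.57, adjusted p = 0.307).

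*Gpx4* encodes the selenoenzyme that reduces lipid hydroperoxides in membranes. It lies at chr10:80047166-80056439 (ENSMUSG00000075706.10) and has processed copies, *Gpx4-ps1* and *Gpx4-ps2*, in the same table, so its count may be split. It was at 92.73 to 150.9 CPM in WT livers and 75.11 to 145 CPM in KO livers on WD, and at 93.08 to 141.3 CPM and 82.47 to 112.2 CPM on CDA-HFD. The 4 groups overlapped. Its log2 fold changes ran from -0.25 between KO and WT livers on WD (adjusted p = 0.649) to -0.11 with the diet in KO livers (adjusted p = 0.69), and none passed.

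*G6pdx* encodes the X-linked glucose-6-phosphate dehydrogenase, the entry to the pentose phosphate pathway and a source of NADPH. It lies at chrX:74409483-74429194 (ENSMUSG00000031400.10). On WD WT livers were at 16.35, 12.96, 8.691, 7.727 and 13.19 CPM and KO livers at 10.38, 10.49, 8.562, 7.814 and 11.34 CPM, which overlapped (log2 fold change -0.28, adjusted p = 0.637). On CDA-HFD WT livers were at 33.91, 25.19, 31.74, 23.05 and 29.23 CPM, and KO livers at 10.43, 10.82, 8.832, 9.69 and 23.88 CPM. KO livers 1 to 4 were within the range of KO livers on WD, and KO liver 5 was within the WT range. *G6pdx* fell by 1.17 on the log2 scale with the KO (standard error 0.26, adjusted p = 0.0182), and it passed in 7 of the 10 fits with 1 liver left out. Without KO liver 5 the value was -1.53 (adjusted p = 5.5e-05). With the diet it rose 2.41-fold in WT livers (log2 fold change 1.27, adjusted p = 0.000248), without overlap. In KO livers the log2 fold change was 0.39 (95% interval -0.19 to 0.98, adjusted p = 0.334), and 0.02 without KO liver 5. Of its exon bases, 13.6% are shared with *Ikbkg* on the opposite strand, and whether reads were counted by strand is not known.

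**Figure D2:**
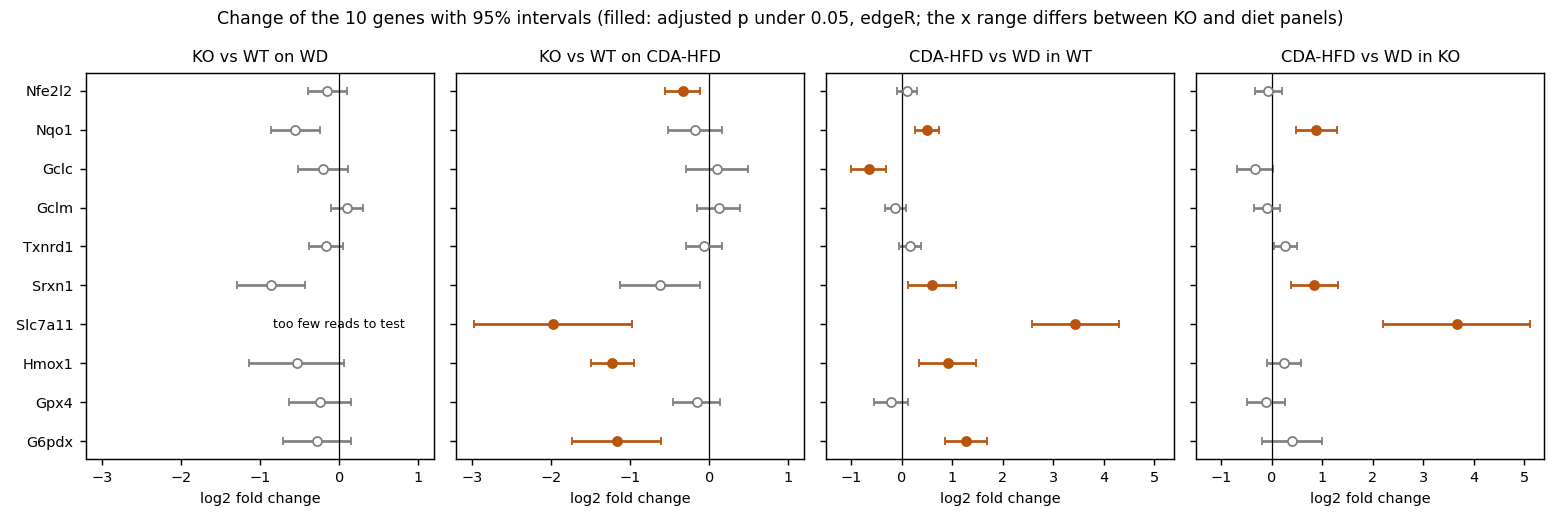
Log2 fold change of each of the 10 genes (x axis) with its 95% interval in the 4 comparisons, 5 livers against 5. Filled points passed at an adjusted p under 0.05 in edgeR, and the KO and the diet panels have different x ranges. *Hmox1*, *Slc7a11*, *G6pdx* and *Nfe2l2* were lower in KO livers on CDA-HFD, and *Slc7a11* moved by 3.44 and 3.66 with the diet in WT and KO livers.

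Counted over the 10 genes, the comparison of KO with WT livers on WD had 0 calls in either direction among the 9 genes tested in edgeR, against 0.0126% of 15848 genes called higher and 0.0631% called lower. At an unadjusted p under 0.05 there were 2, *Nqo1* and *Srxn1*, and DESeq2 called these 2. Over all genes 1702 of 15848 had such a p, and DESeq2 called 164. The estimates were negative for 8 of the 9 genes, with a median of -0.25 against 0.01 over all genes tested. On CDA-HFD 4 of the 10 genes were called lower in KO livers and 0 higher, against 7.29% of 17204 genes called lower and 8.19% called higher. The median over the 10 genes was -0.26 there, against 0.00499 over all genes. The calls numbered 5 without KO liver 5, with *Srxn1* added and *Hmox1*, *Slc7a11*, *G6pdx* and *Nfe2l2* kept, and in that fit 21.8% of all genes were called lower and 19.6% higher. They numbered 1, *Hmox1*, without WT liver 3, KO liver 1 or KO liver 3, and 2, *Hmox1* and *G6pdx*, without WT liver 5 or KO liver 2. Calls over all genes fell in these fits as well, to 709 to 986 of 17282 to 17623 genes, against 2664 of 17204 with all livers kept.

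CDA-HFD set against WD in WT livers gave 5 genes called higher and 1 lower, against 25.9% of 16726 genes called higher and 25.2% called lower. The median of the 10 genes was 0.33, against -0.00316 over all genes. In KO livers 3 of the 10, *Slc7a11*, *Nqo1* and *Srxn1*, were called higher and 0 lower, against 9.19% of 16387 genes called higher and 7.85% called lower, and the median was 0.25. *Slc7a11* passed the filter on low counts in both fits through its CDA-HFD livers. With at least 10 counts in every library it was left out. Then 4 genes were called higher and 1 lower in WT livers, where 7198 of 14236 genes were called, 3649 of them higher. In KO livers 2 were then called higher and 0 lower, where 2326 of 14182 genes were called, 1238 of them higher. Scaling by library size only moved the median of all genes between the diets to 0.42 in WT livers and 0.25 in KO livers. Under that scaling 8 of the 10 genes were called higher and 0 lower in WT livers, with *Nfe2l2*, *Gclm* and *Txnrd1* added and *Gclc* lost, and 85.3% of all calls were higher against 50.7% with TMM. In KO livers *Txnrd1* was added and the share of higher calls was 85.9% against 53.9%. The KO comparison on CDA-HFD kept its 4 calls, with 30.3% of all calls higher against 52.9% and a median of all genes at -0.19. The KO comparison on CDA-HFD shares its 5 WT livers with the diet comparison in WT livers and its 5 KO livers with that in KO livers, so a level in those livers enters both.

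The difference of the KO effect between the diets, fitted on all 20 livers, passed for none of the 10 genes in edgeR, against 0.225% of 17804 genes called with a more negative KO effect on CDA-HFD and 0.331% called with a more positive one. It was -0.88 for *G6pdx* (standard error 0.34, unadjusted p = 0.0182, adjusted p = 0.233) and -0.68 for *Hmox1* (standard error 0.32, unadjusted p = 0.0487, adjusted p = 0.323), the 2 with an unadjusted p under 0.05. Over all genes 2736 of 17804 had such a p. DESeq2 also called 0 of the 10, against 434 of all genes. Without KO liver 5 on CDA-HFD *G6pdx* passed (-1.24, adjusted p = 0.00585), in a fit that called 5.71% of all genes with a more negative effect and 6.17% with a more positive one. For *Slc7a11* the difference was 0.21 with a wide interval, -1.38 to 1.81. The KO effect was thus not shown to differ between the diets for these genes on all 20 livers, and a p that misses the threshold does not show that it was equal.

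The genes also differed in abundance. Per kilobase of annotated exon, WT livers on WD had the highest level for *Gclc*, at 91.65 CPM per kb, followed by *Gpx4* at 72.27, *Srxn1* at 29.94, *Txnrd1* at 28.07, *Nfe2l2* at 26.18, *Gclm* at 21.97 and *Hmox1* at 19.8 CPM per kb. *Nqo1* at 7.45 CPM per kb, *G6pdx* at 3.826 and *Slc7a11* at 0.0931 CPM per kb were the scarcest. In WT livers on CDA-HFD *Gpx4* and *Gclc* were at 62.62 and 58.35 CPM per kb, *Hmox1* had reached 37.4 and *Slc7a11* 1.043 CPM per kb. On WD *Srxn1* and *Txnrd1*, *Txnrd1* and *Nfe2l2*, and *Gclm* and *Hmox1* were neighbors that differed by less than the SD between livers.

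In some groups livers differed along several of the genes together. On WD KO liver 1 had the highest level of 7 of the 10 genes among KO livers and KO liver 4 the lowest of 7. WT liver 5 on WD was highest for 6 and WT liver 3 lowest for 5. Their summed macrophage markers were 782.6 CPM in KO liver 1, the highest of the KO livers on WD, and 417.4 CPM in KO liver 4, the lowest. KO liver 5 on WD, at 772.1 CPM, was highest for *G6pdx* only and lowest for *Nfe2l2* and *Gclm*. WT livers 5 and 3 were at 957.8 and 525.9 CPM, and WT liver 1 had the most, 1553 CPM. On CDA-HFD WT liver 1, with the most macrophage RNA (4175 CPM), was highest for *Txnrd1*, *Hmox1*, *Gpx4* and *G6pdx*, and WT liver 4 (2090 CPM) was lowest for 5 of the 10. WT liver 2 had the least macrophage RNA of that group (2047 CPM) and was lowest for *Hmox1* and highest for *Gclm*. Among KO livers on CDA-HFD, none was highest or lowest for more than 3 of the 10 genes.

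Markers of other liver cells differed between the groups too, not all in the same direction. Summed macrophage markers were at 525.9 to 1553 CPM in WT and 417.4 to 782.6 CPM in KO livers on WD, at 2047 to 4175 CPM in WT livers on CDA-HFD, and at 785.4 to 2448 CPM in KO livers on CDA-HFD. None of the 15 was at 0 in any library. Of these 15 genes 4 were called lower (*Adgre1*, *Cd68*, *Csf1r* and *Trem2*) and 1 higher (*Cd163*) in KO livers on CDA-HFD, and without KO liver 5 there were 9 lower and 3 higher. Of all genes 7.29% were called lower and 8.19% higher in that comparison, and 21.8% and 19.6% without KO liver 5. Stellate cell markers (10 genes) ranged from 2395 to 3883 CPM in WT and from 1340 to 4079 CPM in KO livers on CDA-HFD, and cholangiocyte markers (8 genes) from 367.8 to 798.6 CPM and from 72.58 to 658.7 CPM. KO liver 5 was within the WT range for macrophage and cholangiocyte markers and above it for stellate cell markers. Its *Slc7a11* and *G6pdx* were within the WT range too, but its *Hmox1*, at 32.08 CPM, was below that of every WT liver on the diet. Markers of neutrophils (6 genes) were below the WT range in all KO livers on CDA-HFD, at 9.23 to 21.31 CPM against 30.69 to 66.81 CPM, KO liver 5 being at 21.31 CPM, and all 5 neutrophil genes tested were called lower. In KO liver 5 most of the macrophage sum came from *Lyz2* (862.3 CPM) and *Gpnmb* (697.3 CPM). WT livers on CDA-HFD were high in both too, at 553.3 to 1260 CPM and 461.8 to 1347 CPM. With all livers kept, neither passed between KO and WT livers there (edgeR adjusted p = 0.0751 and 0.1). Both were called lower without KO liver 5 (6.91e-05 and 6.71e-05). KO liver 5 was below every WT liver for *Clec4f* (25.67 against 57.08 to 127.1 CPM) and *Vsig4* (8.139 against 23.2 to 42.36 CPM), markers of resident Kupffer cells. These 4 genes were named after their values were seen. Endothelial markers (8 genes) were lower on CDA-HFD than on WD in WT livers, at 498.5 to 598.4 CPM against 731.1 to 795.6 CPM. KO livers on CDA-HFD were at 444.8 to 827.7 CPM for them. Lymphocyte markers (9 genes) overlapped between WT and KO livers on CDA-HFD, at 9.157 to 16.23 CPM and 7.902 to 23.16 CPM. The part of cell composition in the changes of the 10 genes, *Hmox1* included, was not tested. In whole liver, fewer cells of a type and less RNA per cell cannot be told apart.

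**Figure D3:**
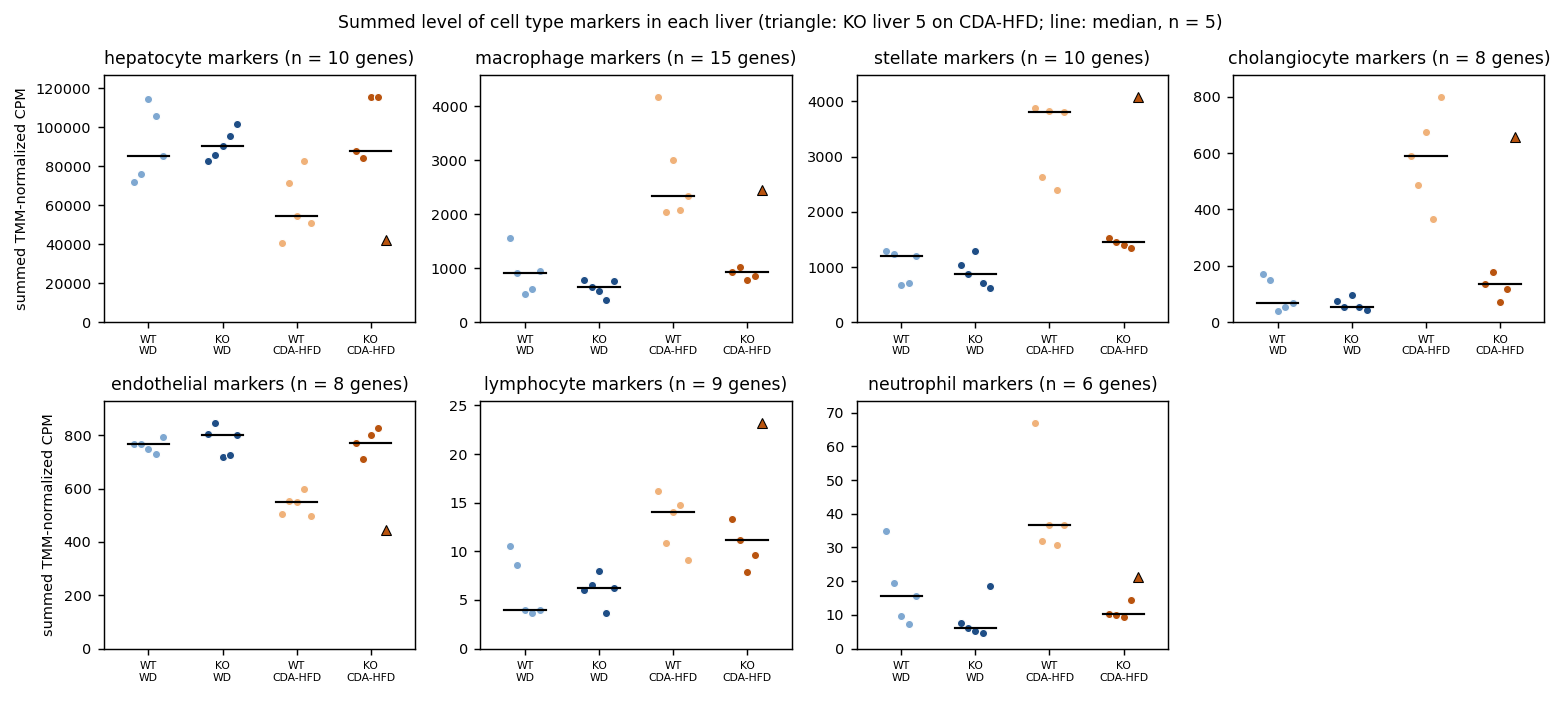
Summed level of the markers of 7 cell types (y axis, TMM-normalized CPM, linear scale starting at 0) in each liver of the 4 groups (x axis). Points are livers, lines are medians of 5, and the triangle is KO liver 5 on CDA-HFD. That liver was at 2448 CPM for macrophage markers, within the 2047 to 4175 CPM of WT livers, while the 4 other KO livers were at 785.4 to 1026 CPM.

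Wider lists of the pathway were examined by the same test, and 0 genes of all 8 lists passed between KO and WT livers on WD in edgeR. At an unadjusted p under 0.05 there were 5 glutathione genes, 3 conjugation and transport genes, 3 superoxide and peroxide genes, 1 thioredoxin gene and 1 NADPH gene. DESeq2 called 1 glutathione gene. Over all genes on WD 1702 of 15848 had such a p, and DESeq2 called 164. Among 11 regulators of NRF2, 3 were called higher in KO livers on CDA-HFD and 0 lower, with a median log2 fold change of 0.07 (3 and 1 without KO liver 5, a count chosen after seeing the data, as are those below). The counts of each list between KO and WT livers on CDA-HFD are to be read against 8.19% of all genes called higher and 7.29% lower. Those without KO liver 5 are to be read against 19.6% and 21.8%. With all livers kept, 6076 of 17204 genes had an unadjusted p under 0.05 there, and DESeq2 called 4144. Counts with the diet are to be read against 25.9% higher and 25.2% lower in WT livers, and 9.19% and 7.85% in KO livers. With the diet in KO livers 5452 of 16387 genes had an unadjusted p under 0.05, and DESeq2 called 3658. The 3 regulators called higher were *Keap1*, *Mafg*, a small MAF partner of NRF2 (137 ± 8.79 CPM in WT livers against 204 ± 32.9 CPM, SD, n = 5 each, a rise of 0.57 at an adjusted p of 0.0157), and *Nfe2l1*, a relative of NRF2 that controls proteasome genes (0.44, adjusted p = 0.0181). *Mafg* and *Nfe2l1* did not overlap between KO and WT livers. With the diet in WT livers 5 of the 11 were called lower and 0 higher, *Nfe2l1* at -0.48 (adjusted p = 0.00161). In KO livers edgeR and DESeq2 called 0 with the diet, and 1 had an unadjusted p under 0.05.

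Of 19 further glutathione genes, 18 were tested on CDA-HFD, with 4 higher and 1 lower in KO livers (5 and 4 without KO liver 5). *Oplah*, which recycles 5-oxoproline to glutamate, rose by 0.98 (adjusted p = 0.0121), *Ggt6* by 0.73 (adjusted p = 0.00927), and *Gpx7*, a peroxidase of the endoplasmic reticulum, fell by 0.69 (adjusted p = 0.0164). In WT livers 4 rose and 6 fell with the diet. The secreted peroxidase *Gpx3* rose from 6.87 to 34.9 CPM (log2 fold change 2.33, adjusted p = 4.64e-05) and *Gpx7* by 1.39, while *Glo1*, which detoxifies methylglyoxal, fell by 1.34 and *Ggt6* by 0.84. In KO livers 0 rose and 2 fell with the diet, *Glo1* by 0.92 and *Chac1*, which degrades glutathione, by 2.08 (adjusted p = 0.0118).

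Among 20 genes of the thioredoxin, peroxiredoxin and methionine sulfoxide reductase families, 3 were higher and 2 lower in KO livers on CDA-HFD (8 and 3 without KO liver 5). *Prdx6* rose by 0.74 (adjusted p = 0.0285) and *Glrx5* by 0.52 (adjusted p = 0.0359). *Prdx1*, an abundant peroxiredoxin and itself a target of NRF2, was at 537.2, 602.3, 599.1, 568.4 and 552.6 CPM in WT livers and at 455.5, 427.3, 438.7, 476.3 and 364.3 CPM in KO livers. Its groups did not overlap, and it fell by 0.41 (adjusted p = 0.0276). *Msrb3* fell by 0.40. With the diet 1 rose and 12 fell in WT livers, with a median of -0.34, *Prdx4* at 0.54, *Glrx5* at -1.11 and *Msra* at -1.04. In KO livers 1 rose (*Prdx4*, 0.44) and 3 fell, *Txnrd2* at -0.76 and *Msrb2* at -0.58 among them.

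For 12 other genes that supply NADPH, edgeR called 0 between KO and WT livers on CDA-HFD, where *G6pdx* was lower. At an unadjusted p under 0.05 there were 2, DESeq2 called 1 higher and 1 lower, and edgeR without KO liver 5 called 3 higher and 1 lower. With the diet 8 of the 12 fell in WT livers and 7 in KO livers, and 0 rose, while *G6pdx* rose in WT livers. Malic enzyme, *Me1*, fell from 288 ± 70 to 26.2 ± 2.75 CPM in WT livers (SD, n = 5 each, -3.46 on the log2 scale, adjusted p = 3.16e-07) and from 305 ± 109 to 25.5 ± 6.91 CPM in KO livers (-3.58, adjusted p = 5.83e-05). *Tkt*, a transketolase of the pentose phosphate pathway, fell by 0.62 and 0.64.

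Conjugation and transport genes, 21 in all, had 7 higher and 2 lower in KO livers on CDA-HFD, with a median of 0.39 (10 and 3 without KO liver 5). *Gsta3*, a glutathione transferase, rose by 0.81 (adjusted p = 0.0203) and *Aox1*, aldehyde oxidase, by 0.76 (adjusted p = 0.00844). The aldo-keto reductases went the other way: *Akr1b8* was at 11.98, 7.458, 11.19, 6.768 and 10.86 CPM in WT livers and at 3.478, 4.113, 3.32, 5.359 and 5.745 CPM in KO livers, without overlap, and it fell 2.2-fold (log2 fold change -1.14, adjusted p = 0.0131). *Akr1b10* fell by 0.90 (adjusted p = 0.0223). With the diet in WT livers 5 rose and 9 fell, against 25.9% and 25.2% of all genes. *Akr1b8* rose by 1.81 (adjusted p = 0.000214) and *Osgin1*, an oxidative stress response gene, by 0.97, while *Gstm4* fell by 1.11 and the exporter *Abcc3* by 1.01. In KO livers 3 rose and 1 fell, *Osgin1* by 1.74 (adjusted p = 0.00694), *Gsta1* by 2.58 from 0.506 to 2.93 CPM, and *Nqo2* lower by a log2 fold change of -0.74. *Gsta1* was at 0.07587 to 1.396 CPM in KO livers on WD. It passed the filter on low counts in that fit through its CDA-HFD livers, so the size of its rise is uncertain. The *Gsta*, *Gstm* and *Akr1b* genes have close paralogs, and their reads may have been split between them.

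Heme and iron genes, 9 in all, had 1 higher and 3 lower in KO livers on CDA-HFD, with or without KO liver 5. *Blvra* encodes biliverdin reductase, which acts on the product of *Hmox1*. It was at 23.07, 18.65, 16.36, 14.34 and 16.27 CPM in WT livers and at 10.5, 11.01, 9.894, 9.103 and 13.59 CPM in KO livers, without overlap, and it fell by 0.72 (adjusted p = 0.0159). *Slc48a1*, a heme transporter, fell by 0.37 (adjusted p = 0.0356), and *Abcb6*, a porphyrin transporter, rose by 0.64 (adjusted p = 0.0265). The third that fell was *Fth1*, ferritin heavy chain, named here after its value was seen. *Blvra*, *Slc48a1* and *Abcb6* also moved with the diet in WT livers, *Blvra* by 0.54, *Slc48a1* by 0.52 and *Abcb6* by -0.98, with *Fech* at -0.47. In KO livers edgeR and DESeq2 called 0 of the 9 between the diets, and 3 had an unadjusted p under 0.05.

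Superoxide and peroxide genes, 17 in all, had 4 higher and 3 lower in KO livers on CDA-HFD (6 and 7 without KO liver 5). *Ncf4*, which encodes a subunit of the phagocyte NADPH oxidase, an enzyme that produces superoxide and does not remove it, fell by 1.11 (adjusted p = 0.0386). *Aifm2* rose by 0.51 and *Park7* by 0.48. In WT livers 6 rose and 9 fell with the diet, the oxidase subunit *Cyba* at 2.11, *Sod1* at -0.80 and *Park7* at -0.75. In KO livers 3 rose and 1 fell, *Cybb* at 1.38, *Ncf4* at 1.15 and *Park7* at -0.43. *Cybb* was at 0.78 without KO liver 5 (adjusted p = 0.00919), and *Park7* was then short of the threshold (-0.35, adjusted p = 0.0511). *Ncf4*, *Cyba* and *Cybb* moved with the macrophage markers above, and the part of macrophages in their change was not tested.

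Of 12 genes of lipid peroxidation and ferroptosis, edgeR called 0 between KO and WT livers on CDA-HFD (2 higher without KO liver 5), while 5 had an unadjusted p under 0.05 and DESeq2 called 2 higher and 2 lower. With the diet 1 rose and 4 fell in WT livers, and 1 rose and 2 fell in KO livers. *Alox15*, a lipoxygenase, was at 1.53 and 3.68 CPM on WD and CDA-HFD in WT livers and rose by 1.24 and, in KO livers, by 1.01. *Lpcat3*, which puts polyunsaturated chains into phospholipids, fell by 1.14 and 1.07. *Ncoa4* fell by 0.38 in WT livers and *Slc39a14* by 0.46 in KO livers, a call lost without KO liver 5 (adjusted p = 0.0505). The plot of all lists sets these genes beside NRF2 and its targets.

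**Figure D4:**
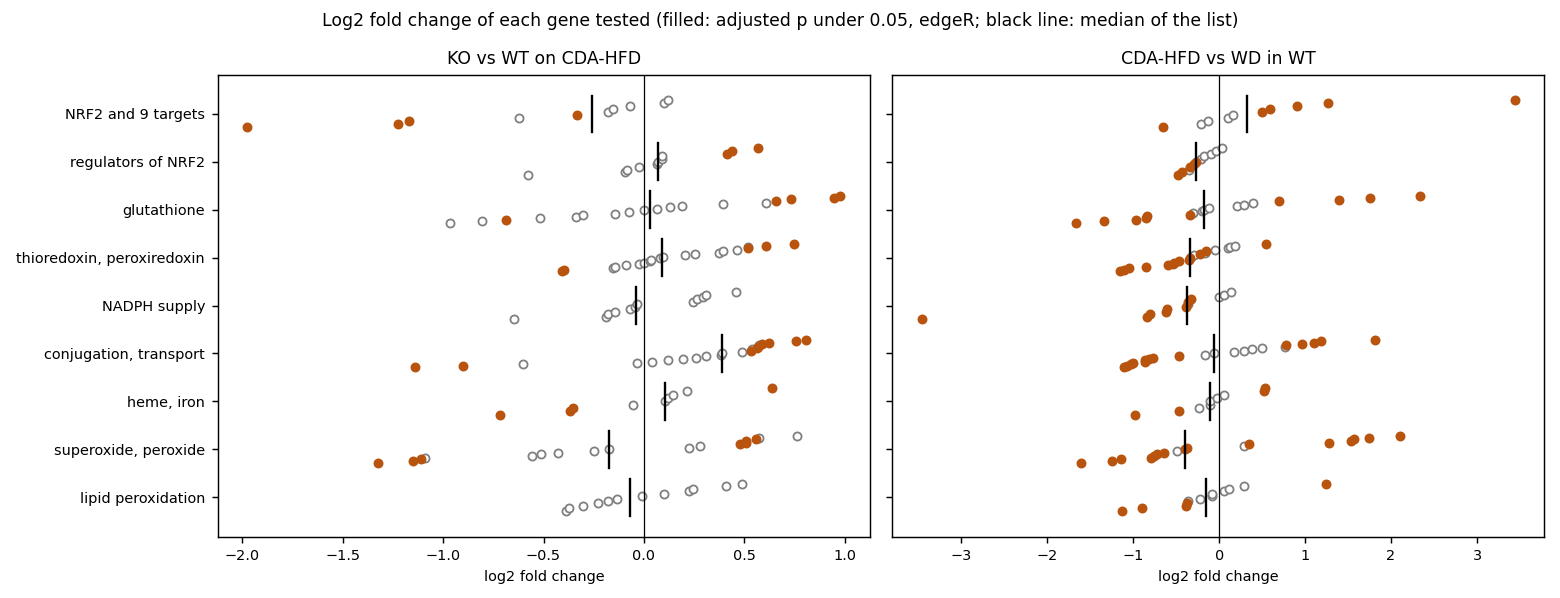
Log2 fold change (x axis) of each gene tested in the set of 10 and in 8 wider lists (y axis), for KO against WT livers on CDA-HFD and for CDA-HFD against WD in WT livers. Filled points passed at an adjusted p under 0.05 in edgeR, and black lines are medians. On CDA-HFD the 10 genes had a median of -0.26 in KO livers and the conjugation and transport list 0.39.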

How the data were processed

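Raw read counts per gene were deposited by the authors, without normalization, for 20 livers. Libraries came from total RNA. A directional NEBNext kit is named in the labels but a Nugen Ovation kit in the paper, so the use of strand in counting is not known. The submitters' processing notes name the build mm10, and the aligner, counter and annotation are not given in the sources used here. Between 18% and 28.7% of the reads of a library aligned to several places and were left out of genes, which lowers genes with close copies. The table's 5 tally rows entered no fit, and 0 sample columns were left unused.

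The tests ran in edgeR 4.0.16 under R 4.3.3, with limma 3.58.1 loaded beside it (filterByExpr, TMM, quasi-likelihood F test, Benjamini-Hochberg adjustment over all genes tested, threshold 0.05), with each 2-group comparison fitted on its own 10 livers and the diet by KO term on all 20. The standard error was the log2 fold change divided by the square root of F. For single genes the difference of mean CPM was set against all 252 splits of the 10 livers (exact permutation, two-sided). DESeq2 1.42.0, RLE size factors, library size only, no filter, at least 10 counts in every library, 1 fit on all 20 livers, a replicate block and leaving out each liver were the alternatives. The scripts were tested on simulated counts. In 40 pairs of livers of the same group the chi-square per gene was 6.94 to 124, above the 1 of sampling noise, so no library was a copy of another in its group. Pairs across groups were not compared in this way. Each p-value measures the spread between these livers only, as the labels name separate livers and say nothing of litters or cages. Plots used matplotlib 3.10.9 (Python 3.11.15).

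The 10 genes, the wider lists, the markers and the alternatives were chosen with earlier results of these data known, and list counts without KO liver 5 were added after seeing the data. The text names all 10 genes, *Cideb* and *Keap1*, and from each wider list at most 2 higher and 2 lower genes per comparison with the smallest adjusted p, except 1 gene that is not reported here. Macrophage genes called in KO livers on CDA-HFD, and *Fth1*, were named after their values were seen. Coordinates are from GENCODE M21 (GRCm38), gene models by symbol, and promoters from RefSeq GRCm38.p6.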

Additional observations from a re-analysis of the deposited data

Results flagged for a closer look

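Within groups of 5 livers, a far sample was sought by the gap to its nearest neighbor divided by the range of the group. The gap passed 0.71, the 95% critical value for 5, in 9 of 68 groups of genes and marker sums, where chance gives about 3.4. KO liver 5 on CDA-HFD accounted for 5 of them: *G6pdx* (gap ratio 0.868, 23.88 CPM against 8.832 to 10.82 CPM), *Slc7a11* (0.799, 9.216 CPM against 1.772 to 3.27 CPM), and the sums of macrophage markers (0.855), stellate cell markers (0.929, 4079 CPM against 1340 to 1534 CPM) and cholangiocyte markers (0.822). The others were *Gclc* in WT liver 5 on WD (0.85, 470.4 CPM against 296.3 to 322.5 CPM), *Gpx4* in WT liver 1 on CDA-HFD (0.714, 141.3 CPM against 93.08 to 106.9 CPM), and neutrophil markers in KO liver 5 on WD (0.798) and in WT liver 1 on CDA-HFD (0.834).

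The interaction term passed in edgeR for *Aox1* and *Abcc3*, which encode aldehyde oxidase and a conjugate exporter. They were picked from the lists because they passed, *Abcc3* near the threshold. Of 17804 genes, 0.331% were called with a more positive KO effect on CDA-HFD. Calls over all genes numbered 99 in either direction, and 35 to 2138 with 1 liver left out. *Aox1* had a log2 fold change of -0.18 between KO and WT livers on WD and 0.76 on CDA-HFD, a difference of 0.94 (adjusted p = 0.024), and *Abcc3* had -0.11 and 0.59, a difference of 0.70 (adjusted p = 0.0475).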

How the results depend on the processing

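Values of the 10 genes kept their direction and their side of the threshold in 311 cases with all livers (2 lost the call, 6 gained one, 11 turned) and in 553 with 1 liver left out (23 lost it, 2 gained one, 12 turned). For KO against WT livers on WD, DESeq2 called 2 of the 9 genes in place of 0. With 1 liver left out the calls among the 10 genes ran from 1 to 5 between KO and WT livers on CDA-HFD, and from 0 to 1 for the difference of KO effects. With at least 10 counts in every library *Slc7a11* was left out of every fit that held WD livers. Scaling by library size only turned *Gclc* to -0.12 and *Gclm* to -0.091 between KO and WT livers on CDA-HFD, *Gclm* to 0.30 and *Gpx4* to 0.21 with the diet in WT livers, *Nfe2l2* to 0.16, *Gclm* to 0.13 and *Gpx4* to 0.14 with the diet in KO livers, and the difference of KO effects to -0.17 for *Gclm*, -0.085 for *Txnrd1* and -0.063 for *Gpx4*. All genes shifted with it, as given in the report, and 40.9% of calls for that difference were then positive against 59.6%. With 1 liver left out, *Gclc* ran from -0.025 to 0.20 between KO and WT livers on CDA-HFD, *Nfe2l2* from -0.14 to 0.021 and *Gpx4* from -0.21 to 0.027 with the diet in KO livers, and the difference of KO effects from -0.038 to 0.12 for *Gclm*, -0.47 to 0.82 for *Slc7a11* and -0.0089 to 0.24 for *Gpx4*. The cause of these turns was not tested, and the turned values were short of the threshold except *Gclm* with the diet in WT livers by library size (adjusted p = 0.00631).

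Replicate numbers did not pair the livers. In the 4 comparisons the correlation of same-numbered livers ran from -0.367 to 0.349, and between 1 and 3 of 5 pairs were over 0.1. Not every liver correlated best with its own number in any comparison. The replicate block gave 0 calls among the genes on WD, 5 for KO on CDA-HFD (*Srxn1* added), 6 and 3 with the diet in WT and KO livers, and 0 for the difference of KO effects, where it turned *Slc7a11* to -0.091.

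Over all genes, calls between KO and WT livers on WD numbered 12, against 164 in DESeq2, 38 without a filter, 26 with all 20 livers in the fit, 8 by library size, 2 with the block and 1 to 33 with 1 liver left out. On CDA-HFD there were 2664, against 4144 in DESeq2, 4170 with all 20 livers, 1709 by library size and 709 to 7201 with 1 liver left out. With the diet in KO livers there were 2792, against 4476 with all 20 livers and 1568 to 2881 with 1 liver left out. The difference of KO effects had 99, against 434 in DESeq2, 44 by library size, 52 without a filter, 63 with the block and 35 to 2138 with 1 liver left out. *Slc7a11* had 1 to 40 reads per liver on WD, which left its KO difference there without a main test.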
